A study of Homo sapiens with 4 samples.

Results

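Respiratory complex I, the NADH:ubiquinone oxidoreductase of the inner mitochondrial membrane, was examined through its nuclear-encoded genes in human H9 cells, an established embryonic stem cell line. The members were the genes of the deposited table whose symbol was NDUFA, NDUFB, NDUFC, NDUFS, NDUFV or NDUFAF with a number, NDUFAB1, or NDUFA4L2, with pseudogenes left out. Of the 60671 genes, 46 that met this name rule are described. They comprised 6 core subunits, 30 accessory subunits, 8 assembly factors, and NDUFA4 with its paralog NDUFA4L2, which were kept apart because NDUFA4 is a subunit of complex IV.

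Polyadenylated RNA had been sequenced from 2 groups with 2 libraries each, all of them grown in mTeSR medium with no treatment. The control group was H9 cells with the genotype label control. The study uses both H9 cells as a control and clones that received the empty CRISPR/Cas9 vector as mock controls. The labels do not say which of them these libraries came from. In its text the study sets RNA-seq of the over-expressing cells beside mock control cells. The KO+OE group carried an edited CFIm25 gene (NUDT21) and an added 3Flag-CFIm25, which the study describes as put back into a single edited clone by a lentiviral vector with the EF1 promoter. Although the label reads KO, the study reports that its edited clones kept a low level of CFIm25 protein with a small N-terminal deletion. CFIm25 belongs to cleavage factor I, a complex that takes part in choosing the site where a transcript is cut and polyadenylated. Edited cells without the added protein were not analysed here, so the comparison covers the edit, the vector and the clone together. NUDT21 itself measured 160.67 and 152.20 TPM in control against 162.09 and 156.60 TPM in KO+OE, where reads from the edited gene and from the added copy cannot be told apart. TPM is a level of transcripts per length, scaled to a common total in each library.

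No source used here says that the 2 libraries of a group came from separate cultures, so p-values measure only the spread between these libraries. The number of reads behind each value is unknown. In these bulk samples, fewer cells of a type and less RNA per cell cannot be told apart. All 8 markers of pluripotent stem cells were detected in every library, with means over the 4 libraries from 16.8 TPM (SALL4) to 2189 TPM (POU5F1), and 9 of 11 germ layer markers averaged under 1 TPM, the exceptions being GATA6 at 4.35 to 8.39 TPM and TBX6 at 1.61 to 2.64 TPM. Of 5 fibroblast markers, COL3A1, DCN and LUM had a mean under 1 TPM, whereas COL1A1 had 54.5 TPM and COL1A2 13.6 TPM.

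Complex I takes electrons from NADH, passes them along a chain of iron-sulfur clusters to ubiquinone, and pumps protons across the inner membrane. It has the shape of an L, with a matrix arm that carries the redox reactions and a membrane arm that carries the proton channels. The core subunits are those shared with bacteria. In animals the core of the membrane arm is encoded by mitochondrial DNA and the core of the matrix arm by nuclear genes. Accessory subunits surround this core, and assembly factors help to build the complex without remaining in it. Embryonic stem cells rely strongly on glycolysis and keep a functional respiratory chain.

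All 44 members outside the NDUFA4 pair passed the filter of a mean of at least 1 TPM over the 4 libraries. Their median level was 123 TPM, against 7.77 TPM over all 12319 genes tested. A high level was not particular to complex I, since 38 nuclear subunits of complexes II to V had a median of 197 TPM. Of the 44 members, 23 lay in the top 10% of the tested genes by level, 18 in the top 5%, and 3 below the median of the tested genes. The assembly factors were the lowest class in each of the 4 libraries. The median of the core subunits was 184 ± 3.34 TPM in the control group and 183 ± 0.29 TPM in the KO+OE group (mean of the library medians ± SD, n = 2 each). That of the accessory subunits was 187 ± 3.34 TPM and 171 ± 14.9 TPM, and that of the assembly factors 15.2 ± 0.87 TPM and 14.7 ± 0.26 TPM. The core median was thus 11.5 to 12.8 times that of the assembly factors in each library, whereas the accessory median was 0.88 to 1.02 times the core median. The core median is that of 6 genes and lies in the gap between NDUFS3 at 137 TPM and NDUFV1 at 229 TPM, so it depends closely on which genes are counted. Genes also differed within a class. From the lowest to the highest member the level differed 29.6-fold among core subunits, 618-fold among accessory subunits and 14.9-fold among assembly factors. Genes of a class are not replicates of each other, so no test was made between the classes.

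**Figure D1:**
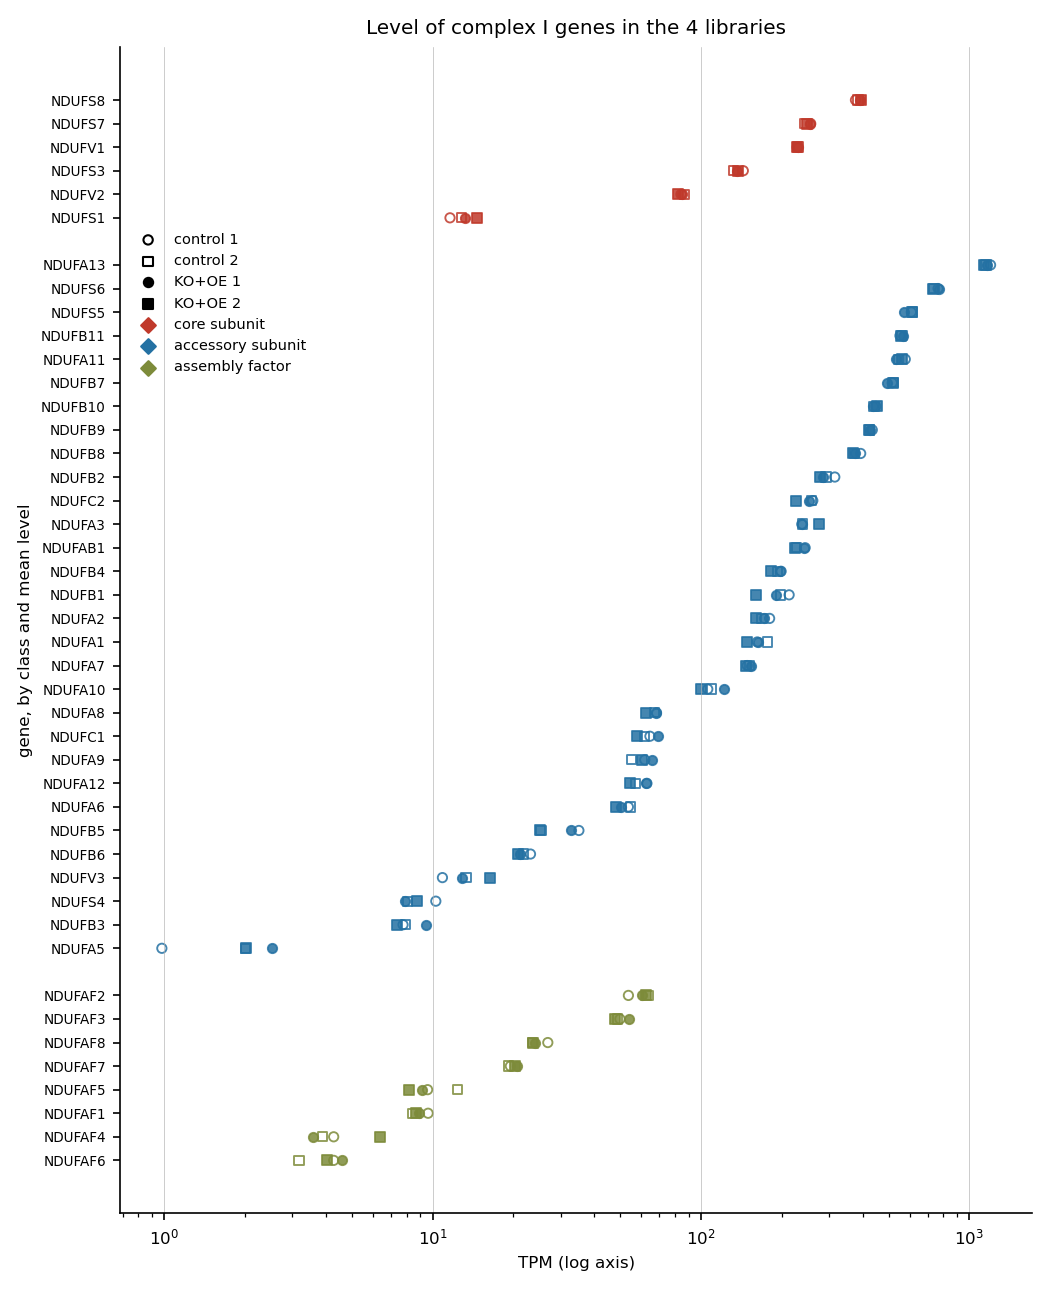
Level of each of 44 complex I genes in TPM (log axis), 1 point for each of the 4 libraries, with circles for the libraries numbered 1 and squares for those numbered 2, open for control and filled for KO+OE, coloured by class. The points of a gene mostly lie on top of each other, while genes of 1 class range from 1.88 TPM (NDUFA5) to 1162 TPM (NDUFA13) in the mean of the 4 libraries.

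The nuclear core subunits form the electron path of the matrix arm. NDUFV1 holds the flavin that accepts electrons from NADH, and its partners in the NADH-oxidizing module are NDUFV2 and NDUFS1, which carry iron-sulfur clusters. NDUFV1 was at 228.12 and 230.01 TPM in the control libraries against 229.89 and 228.40 TPM in the KO+OE libraries. NDUFV2 was at 84.23 and 86.62 TPM in control against 84.78 and 82.07 TPM in KO+OE. NDUFS1, the largest subunit of the complex, was at 11.61 and 12.84 TPM in control against 13.19 and 14.69 TPM in KO+OE. The TPM values of the 3 partners therefore differed widely. Within a library NDUFV1 was 15.5 to 19.6 times NDUFS1 and 2.66 to 2.78 times NDUFV2. The canonical transcript has 11660 bases for NDUFS1 and 1560 bases for NDUFV1. TPM divides by a length that the sources used here do not give, so these ratios depend on that length.

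NDUFS3, NDUFS7 and NDUFS8 belong to the module that hands the electrons to ubiquinone. NDUFS8, a ferredoxin-like subunit with iron-sulfur clusters, was the highest core gene, at 376.34 and 384.49 TPM in control against 391.71 and 395.63 TPM in KO+OE. NDUFS7, which holds the last iron-sulfur cluster before ubiquinone, was at 256.29 and 242.52 TPM in control against 255.37 and 249.09 TPM in KO+OE. Both were above NDUFS3 in every library. NDUFS3 had 143.77 and 132.44 TPM in control against 136.11 and 136.79 TPM in KO+OE. In the order of core levels (NDUFS8, NDUFS7, NDUFV1, NDUFS3, NDUFV2, NDUFS1), no library of a gene overlapped a library of its neighbour. By TPM, NDUFS1 stood apart at the low end, with NDUFS8 exceeding it 26.9-fold to 32.4-fold, under the same limit of transcript length.

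Among the 30 accessory subunits, NDUFA13 (also known as GRIM-19, a membrane-arm subunit near the junction of the arms) was the highest, at 1199.30 and 1152.88 TPM in control against 1160.44 and 1136.86 TPM in KO+OE. It ranked 123 of the 12319 genes tested. NDUFS6, a zinc-binding subunit of the matrix arm, was at 764.38 and 737.79 TPM in control against 772.63 and 730.19 TPM in KO+OE. NDUFS5, which lies on the intermembrane-space side of the membrane arm, was at 607.61 and 612.90 TPM in control against 573.13 and 609.22 TPM in KO+OE. These 3 genes together made up 27.7% to 27.8% of the summed level of the 44 members in each library.

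At the other end of the class were NDUFS4, NDUFB3 and NDUFA5. NDUFS4, a matrix-arm subunit whose loss causes Leigh syndrome, was at 10.28 and 8.04 TPM in control against 7.91 and 8.72 TPM in KO+OE. The level of NDUFB3, of the membrane arm, was 7.76 and 7.94 TPM in control against 9.43 and 7.34 TPM in KO+OE. NDUFA5, of the matrix arm, was the lowest of all 44 members, with 0.98 and 2.01 TPM in control against 2.52 and 2.01 TPM in KO+OE. The groups overlapped for all 3 genes, and the control libraries of NDUFA5 differed from each other by 0.60 on the log2(TPM + 1) scale. By position in the complex, the 20 accessory subunits of the membrane arm had a median of 248 TPM, against 59.3 TPM for the 9 of the matrix arm. NDUFAB1, the mitochondrial acyl carrier protein, which binds to both arms and also serves outside complex I, was counted in neither and had a mean of 235 TPM.

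The assembly factors were lower. NDUFAF2, which takes the place of NDUFA12 during assembly, was at 53.65 and 63.51 TPM in control against 60.21 and 62.49 TPM in KO+OE. NDUFAF3, which works with NDUFAF4 on an early intermediate, was at 49.90 and 48.83 TPM in control against 53.97 and 47.72 TPM in KO+OE. NDUFAF4 itself was at 4.28 and 3.88 TPM in control against 3.59 and 6.35 TPM in KO+OE. The means of this pair over the 4 libraries were thus 50.1 and 4.53 TPM, and the KO+OE libraries of NDUFAF4 lay 0.68 apart on the log2(TPM + 1) scale, on both sides of the control libraries.

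NDUFAF5, which hydroxylates an arginine of NDUFS7, was at 9.58 and 12.39 TPM in control against 9.10 and 8.17 TPM in KO+OE. Its partner NDUFAF8 was at 26.87 and 23.53 TPM in control against 23.99 and 23.72 TPM in KO+OE. NDUFAF7, a mitochondrial arginine methyltransferase, was at 19.49 and 19.18 TPM in control against 20.62 and 20.35 TPM in KO+OE. Of these 3, NDUFAF5 was lower and NDUFAF7 higher in both KO+OE libraries than in both control libraries. NDUFAF1, part of the machinery that assembles the membrane arm, was at 9.62 and 8.41 TPM in control against 8.88 and 8.64 TPM in KO+OE. NDUFAF6, the lowest of the class, had 4.28 and 3.18 TPM in control against 4.61 and 4.04 TPM in KO+OE. The groups overlapped for both. A further list of 12 assembly factors with other names (ACAD9, COA1, DMAC1, DMAC2, ECSIT, FOXRED1, NUBPL, TIMMDC1, TMEM126A, TMEM126B, TMEM186 and TMEM70) had a median of 18.2 TPM, ranging from 1.10 TPM (NUBPL) to 143 TPM (COA1).

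NDUFA4 was at 114.07 and 111.04 TPM in control against 112.85 and 100.13 TPM in KO+OE. Its paralog NDUFA4L2, known as a gene induced by hypoxia, was at 0.22 and 0.36 TPM in control against 0.20 and 0.04 TPM in KO+OE and was not tested. An exon of NDUFA4L2 overlaps an exon of SHMT2, which had a mean of 486 TPM, on the opposite strand, and the strand setting of the counting is not given in the sources used here, so even this low level cannot be assigned to NDUFA4L2 with certainty.

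The level of the members varied with the base composition and the length of their transcripts. Across the 43 members with a GC content for the canonical transcript (all but NDUFB6), Spearman's rho between GC content and mean TPM was 0.71, and that between transcript length and mean TPM was -0.53. Over the 12147 tested genes with a GC content these were 0.27 and -0.19. The 16 members with less than 45% GC had a median of 24.7 TPM, the 8 members from 45% to 50% had 86.4 TPM, the 6 members from 50% to 55% had 231 TPM, and the 13 members at 55% or more had 387 TPM. The core subunits followed the order most closely (rho = 0.94, n = 6 genes), from NDUFS1 with 41.8% GC and 11660 bases to NDUFS8 and NDUFS7, the latter with 66.9% GC. Accessory subunits gave rho = 0.77 (n = 29) and assembly factors rho = 0.36 (n = 8), the latter with NDUFAF8 at 61.4% GC and only 24.5 TPM. For transcript length, rho was -0.77 in core subunits, -0.44 in accessory subunits and -0.62 in assembly factors. GC content and length were themselves related, with rho = -0.38 over the 43 members, so their parts cannot be told apart here. These are descriptions across genes of the same 4 libraries. Genes are not independent replicates, and the points share library, depth and the authors' length correction.

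The 10 members with a mean under 20 TPM were NDUFA5, NDUFB3, NDUFS1, NDUFS4, NDUFV3 and the assembly factors NDUFAF1, NDUFAF4, NDUFAF5, NDUFAF6 and NDUFAF7. All 10 had less than 50% GC, and 8 of them had a canonical transcript longer than 1500 bases, with a median of 2296 bases. The members at 20 TPM or more, without NDUFB6, which has no length, had a median of 675 bases, and 5 of them were longer than 1500 bases. Less than 50% GC was also found in 14 of these higher members. NDUFB3, at 493 bases, was a short transcript with a low level. TPM divides by a length that the sources used here do not give, and the part of GC content, of length and of that correction in the levels was not tested.

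**Figure D2:**
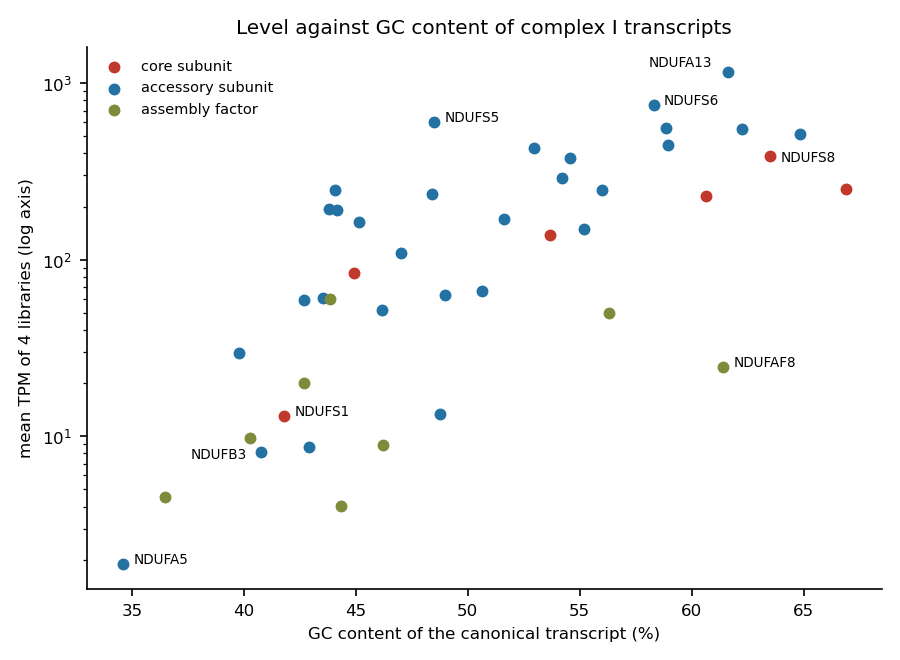
Mean TPM over the 4 libraries (log axis) against the GC content in percent of the canonical transcript for the 43 complex I genes that have one, coloured by class. Levels climb from a median of 24.7 TPM below 45% GC to 387 TPM at 55% GC or more.

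Promoter sequences were available from RefSeq for 39 of the 46 members on GRCh38.p14, each running from 250 bases before to 50 after an annotated start. They were searched on both strands for the TATA box and for motifs of factors known to regulate respiratory chain genes. The motif of YY1, written AANATGGC, was found in 15 of the 39 members (38.5%), against 12.4% of the tested genes with a promoter entry and 7.97% of all genes with one. These 15 comprised 5 core subunits (NDUFS1, NDUFS3, NDUFS7, NDUFS8 and NDUFV2), 8 accessory subunits and 2 assembly factors. In 11 of the 15 a match began 8 to 25 bases after the start, a range read from these same matches. The share of tested genes with a match in that range was not computed. The matches of NDUFA3, NDUFAF8 and NDUFS1 in it are not printed, and that of NDUFS1 lies on the opposite strand. The following windows are printed because the motif recurs in them just downstream of the start. Their genes range from NDUFS4 at 8.74 TPM to NDUFS6 at 751 TPM. The motif contains the letters ATG, and whether these matches lie on the start codon of the protein was not tested. Each window is read 5′ to 3′ on the strand of the gene, with the match in capitals. NDUFS7 is shown from chr19:1383913-1383942 (plus strand), NDUFS3 from chr11:47579078-47579107 (plus strand), NDUFS6 from chr5:1801404-1801433 (plus strand), NDUFA7 from chr19:8321343-8321372 (minus strand), NDUFA9 from chr12:4649113-4649142 (plus strand), NDUFB8 from chr10:100529836-100529865 (minus strand), NDUFA6 from chr22:42090729-42090758 (minus strand) and NDUFS4 from chr5:53560649-53560678 (plus strand).
NDUFS7: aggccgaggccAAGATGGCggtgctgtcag
NDUFS3: tgcatctgagtAACATGGCggcggcggcgg
NDUFS6: gccagcggcgcAAAATGGCggcggcgatga
NDUFA7: atcgcggacggAAGATGGCgtccgccaccc
NDUFA9: gattgtgggaaAAGATGGCggctgccgcac
NDUFB8: tgaagaaggtgAAGATGGCggtggccaggg
NDUFA6: gatgctttggcAAGATGGCggggagcggcg
NDUFS4: ttgcctgcagcAAGATGGCggcggtgtcaa

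The motif of NRF1, written GCGCA, any base and GCGC, was found in 7 of the 39 members (17.9%), namely NDUFA3, NDUFA8, NDUFA9, NDUFA11, NDUFA12, NDUFB4 and NDUFAF5, against 12.9% of the tested genes and 6.98% of all genes with a promoter entry. NDUFB4 had 3 matches. The windows of NDUFB4 at chr3:120596167-120596196 (plus strand), of NDUFA8 at chr9:122159764-122159793 (minus strand) and of NDUFAF5 at chr20:13785014-13785043 (plus strand) are printed because they hold the same letters. The mean levels of these genes were 193 TPM for NDUFB4, 66.4 TPM for NDUFA8 and 9.81 TPM for NDUFAF5.
NDUFB4: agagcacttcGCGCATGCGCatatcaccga
NDUFA8: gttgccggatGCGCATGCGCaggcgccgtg
NDUFAF5: agccgcgctgGCGCATGCGCacaaaaagcg

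The other motifs searched were no more common in members than in the tested genes, or nearly so. The ETS motif CCGGAAG, which GABPA can bind, was in 7 members (17.9%), against 21.9% of the tested genes and 12.2% of all. The TATA box TATAAA was in 3 members (7.69%), against 7.55% and 14.0%, and TCAAGGTCA, a response element of ERR alpha, was in 0 members, against 0.27% and 0.43%. A match is a description of letters in the window and not of a bound site. Members with a YY1 match had a median level of 137 TPM (15 genes, from 8.74 to 751 TPM) and those without one 87.9 TPM (24 genes, from 1.88 to 1162 TPM), and the ranges overlapped. For NRF1 the medians were 66.4 TPM with a match (7 genes) and 123 TPM without (32 genes).

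The comparison of KO+OE with control asked whether the edit and the added CFIm25 went with any change in these genes. At an adjusted p under 0.05 (limma on log2(TPM + 1), Benjamini-Hochberg adjustment over all genes tested), 0 of the 44 members were called, against 0.00812% of all genes tested, which is 1 gene. The smallest adjusted p of a member was 0.928. At an unadjusted p under 0.05 there was 1 member, which was lower in KO+OE, against 5.33% of all genes tested (2.26% higher and 3.06% lower), and a share of 1 in 44 is no more than that background. The estimates were tight for most members, whose median level was 123 TPM against 7.77 TPM over all genes tested. The 95% interval of the fold change lay within 1.5-fold in either direction for 39 of 44 members (88.6%), against 71% of all genes tested, and within 2-fold for 43 of 44, against 92.6%. The exception to the latter was NDUFA5, with an estimate of 0.42 and an interval from -0.24 to 1.07 on the log2 scale (unadjusted p = 0.164). The intervals of NDUFV3, NDUFAF4, NDUFAF5 and NDUFAF6 reached beyond 1.5-fold but not beyond 2-fold. All 5 of these genes had means under 20 TPM. The background share was not matched for level, and for complexes II to V the interval lay within 1.5-fold for 38 of 38 nuclear subunits.

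**Figure D3:**
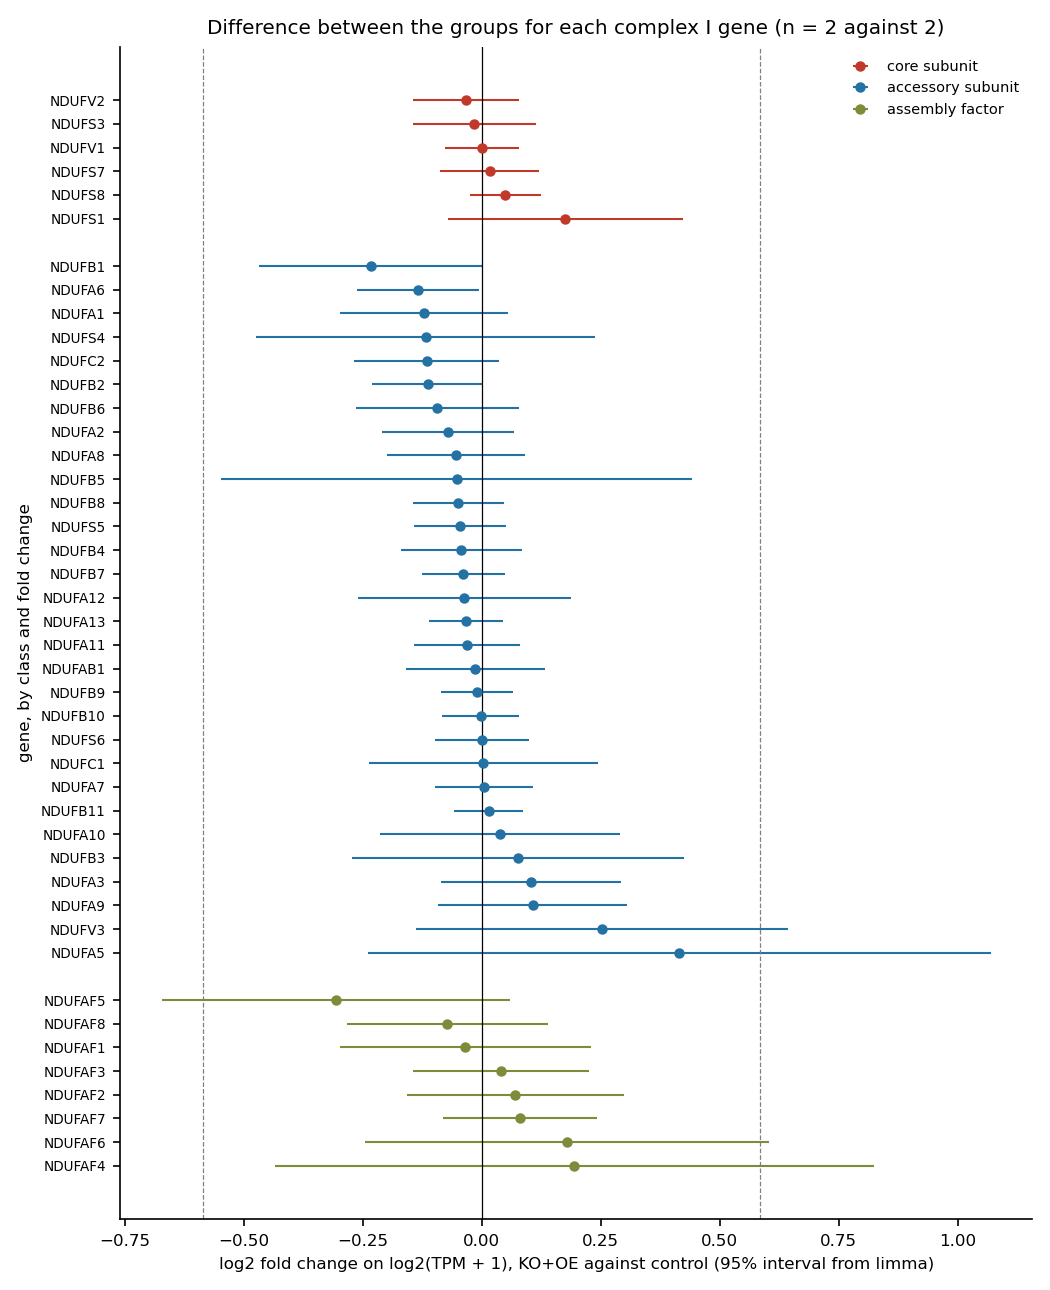
Estimated log2 fold change of each of 44 complex I genes, KO+OE against control, on the log2(TPM + 1) scale, with bars for the 95% interval from limma (2 libraries in each group) and dashed lines at 1.5-fold in either direction. The intervals of 43 genes cross 0, the exception being NDUFA6, and 39 lie wholly between the dashed lines.

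NDUFA6, the member at an unadjusted p under 0.05, belongs to the LYR family and is the subunit of the matrix arm that anchors the acyl carrier protein near the ubiquinone site. It was at 53.63 and 54.63 TPM in control against 50.33 and 48.13 TPM in KO+OE. Both KO+OE libraries lay below both control libraries. The estimate was -0.13 on the log2 scale (95% interval -0.26 to -0.01, unadjusted p = 0.043, adjusted p = 0.928), and the unadjusted p ranged from 0.032 to 0.142 over the alternatives tried. It was above 0.05 with quantile normalization, without limma's mean-dependent prior, with the replicate number as a block, and without control replicate 1, control replicate 2 or KO+OE replicate 2.

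In total the groups did not overlap for 9 of 44 members, against 34.1% of all genes tested. They were higher in KO+OE for 3 of 44, against 14.5% of all genes tested, and lower for 6 of 44, against 19.6%, each below its background. Higher were the core subunits NDUFS8 (estimate 0.05, interval -0.03 to 0.12) and NDUFS1 (0.18, interval -0.07 to 0.42) and the assembly factor NDUFAF7 (0.08, interval -0.08 to 0.24). Lower, besides NDUFA6, were 4 accessory subunits of the membrane arm and NDUFAF5 (-0.31, interval -0.67 to 0.06). Of the 4, NDUFB1 had the lowest estimate of all accessory subunits, with 212.99 and 197.79 TPM in control against 190.46 and 159.85 TPM in KO+OE (-0.23, interval -0.47 to 0.003, unadjusted p = 0.052). NDUFB2 was at 315.14 and 292.54 TPM in control against 283.63 and 277.47 TPM in KO+OE (-0.11, interval -0.23 to 0.003, unadjusted p = 0.054). For both genes the KO+OE 2 library was the lowest. The remaining members of this set were NDUFB6 (-0.09) and NDUFC2 (-0.12).

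By class, the median estimate was 0.0086 for the core subunits, -0.04 for the accessory subunits and 0.05 for the assembly factors on the log2 scale, beside -0.01 over all genes tested. The estimates were below 0 for 2 of 6 core subunits, 20 of 30 accessory subunits and 3 of 8 assembly factors, or 25 of 44 members (56.8%), against 54.5% of all genes tested. Among the accessory subunits they were below 0 for 15 of 20 of the membrane arm (75.0%) and 4 of 9 of the matrix arm. Estimates below 0 were not particular to complex I. Of the 38 nuclear subunits of complexes II to V, 26 were below 0. By complex these were 2 of 4 (II), 4 of 9 (III), 8 of 10 (IV) and 12 of 15 (V). The library KO+OE 2 was the lowest of the 4 for 22 of the 44 members, among them 19 of 30 accessory subunits (63.3%) and 13 of 20 of the membrane arm (65.0%), against 30.2% of all genes tested. It was also the lowest for 15 of the 38 subunits of complexes II to V. The median deviation of the membrane-arm accessory subunits from their mean over the 4 libraries was 0.04 and 0.0004 in control and 0.01 and -0.07 in KO+OE on the log2(TPM + 1) scale. Without KO+OE replicate 2 the median estimate of all accessory subunits was -0.0032, without control replicate 1 it was 0.0055, without control replicate 2 it was -0.06, and without KO+OE replicate 1 it was -0.07, so the size and sign of the accessory median depended on single libraries. The share of the summed TPM that fell on mitochondrial genes was 21.0% and 21.1% in control against 21.6% and 22.1% in KO+OE, the most in KO+OE 2, and their part in the lower values was not tested.

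**Figure D4:**
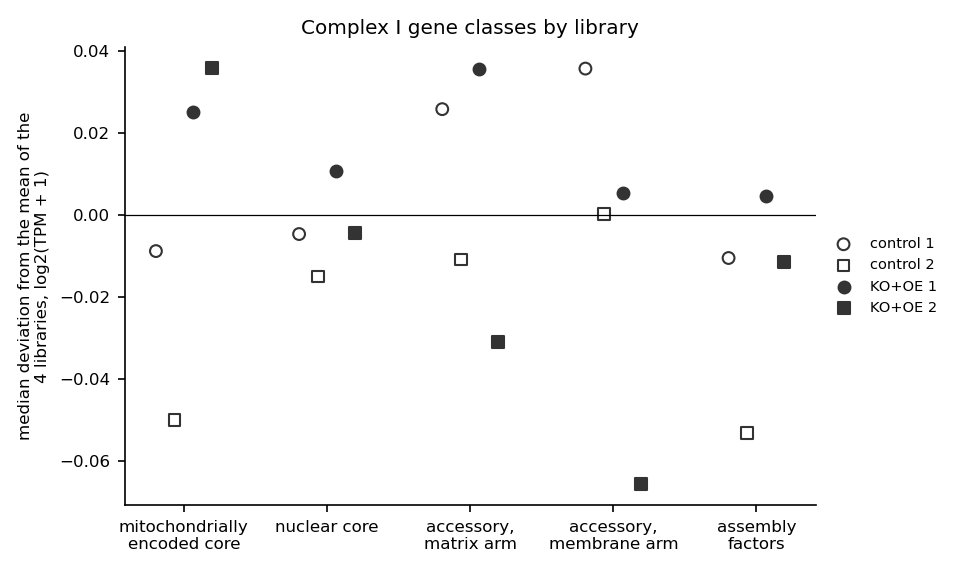
Median deviation of the genes of each class from their own mean over the 4 libraries, on the log2(TPM + 1) scale, with open symbols for control and filled symbols for KO+OE. The lowest point is that of the membrane-arm accessory subunits in KO+OE 2, at -0.07, and both KO+OE points of the mitochondrially encoded subunits, at 0.03 and 0.04, lie above both control points.

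The mitochondrially encoded subunits are the core of the membrane arm and are made from a different genome. Their 7 genes had a median of 7987 TPM, and in each library this was 41.9 to 45.6 times the median of the nuclear core subunits. The estimates of all of them were above 0 (7 of 7, against 45.5% of all genes tested), with a median of 0.06 on the log2 scale. An unadjusted p under 0.05 was seen for 3 of 7, each with a higher estimate in KO+OE, against 2.26% of all genes tested. They were MT-ND2 (0.09, unadjusted p = 0.0084, adjusted p = 0.928 in limma), MT-ND4 (0.10, unadjusted p = 0.0084, adjusted p = 0.928) and MT-ND5 (0.06, unadjusted p = 0.042, adjusted p = 0.928). MT-ND4 was at 9107 and 9101 TPM in control against 9587 and 9917 TPM in KO+OE, and MT-ND2 was at 7786 and 7696 TPM in control against 8146 and 8321 TPM in KO+OE. The groups did not overlap, with KO+OE higher, for these 3 genes and MT-ND1, or 4 of 7, against 14.5% of all genes tested. The mitochondrial transcripts are cut from long common precursors, so these genes do not vary independently, and without the strand of the counting MT-ND6 cannot be told apart from transcripts of the other strand.

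The genes around complex I were taken from lists of known function. None of the 12 further assembly factors had an unadjusted p under 0.05 in limma, and their median estimate was 0.0082, ranging from -0.013 to 0.011 with 1 library left out. Of 13 genes of iron-sulfur cluster assembly, which supply the clusters of the core subunits, 0 had an unadjusted p under 0.05, with a median of -0.06 that ranged from -0.08 to -0.01 with 1 library left out. Of 10 regulators of respiratory genes, 7 were tested and 1 was lower at an unadjusted p under 0.05 in limma, against 3.06% of all genes tested. The median estimate of the 7 was -0.07, ranging from -0.16 to -0.04 with 1 library left out. The groups did not overlap, with KO+OE lower, for 4 of the 7, against 19.6% of all genes tested. The gene at an unadjusted p under 0.05 was ESRRA, which encodes ERR alpha, at 32.21 and 29.99 TPM in control against 26.53 and 23.65 TPM in KO+OE (-0.30, interval -0.51 to -0.09, unadjusted p = 0.014, adjusted p = 0.928). Both KO+OE libraries of ESRRA lay below both control libraries. NRF1 and YY1 themselves had means of 6.58 and 6.88 TPM, while PPARGC1A, PPARGC1B and GABPA averaged under 1 TPM and so did not enter the test.

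Among 38 nuclear subunits of complexes II to V, 1 was higher and 3 were lower at an unadjusted p under 0.05, against 2.26% higher and 3.06% lower of all genes tested, and 0 passed the adjusted threshold in limma. ATP5PB, of the peripheral stalk of ATP synthase, was at 32.75 and 29.97 TPM in control against 42.04 and 38.83 TPM in KO+OE (0.36, interval 0.17 to 0.55, unadjusted p = 0.005, adjusted p = 0.908). CYC1, cytochrome c1 of complex III, was lower by estimate (-0.12, unadjusted p = 0.011), as were the ATP synthase subunits ATP5F1D (-0.16, unadjusted p = 0.020) and ATP5ME (-0.14, unadjusted p = 0.043). The median estimates were -0.009 for complex II, 0.02 for complex III, -0.02 for complex IV and -0.02 for complex V, beside -0.02 for the nuclear complex I subunits. With 1 library left out these medians ranged from -0.03 to 0.01 for complex II, from -0.03 to -0.01 for complex III, from -0.04 to -0.02 for complex IV and from -0.05 to 0.02 for complex V, so those of complexes II, III and V turned sign.

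The table listed 61 pseudogenes named after members, 57 of them at 0 in all 4 libraries, and the highest, NDUFV2P1, was at 0.53, 1.04, 0.27 and 0.77 TPM in control 1, control 2, KO+OE 1 and KO+OE 2. How reads that match both a gene and a copy were counted is not given in the sources used here. The readthrough gene NDUFC2-KCTD14, which shares exons with NDUFC2, was at 4.13 and 5.63 TPM in control against 6.31 and 10.07 TPM in KO+OE, and NDUFC2 was at 260.97 and 258.60 TPM in control against 253.55 and 226.51 TPM in KO+OE. Summed, both genes gave 265 and 264 TPM in control against 260 and 237 TPM in KO+OE, so the order of the libraries was the same as for NDUFC2 alone. Exons of 19 members overlapped those of another gene that averaged 1 TPM or more, for 8 of them on the same strand and for 15 on the opposite strand. The largest such neighbour was RPS28, at 916 TPM, opposite NDUFA7 at 150 TPM, and the level of NDUFA7 is uncertain to that extent.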

How the data were processed

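RNA had been measured in 4 libraries, grouped by the genotype in the labels, with replicate numbers from the titles. The authors deposited 1 table of 60671 genes, with decimal values and no named unit, read here as TPM because each column sums to between 986853 and 987078, so depth is unknown and no counting error was computed. The submitters' processing notes name HISAT2, featureCounts, Subread, DESeq2 and hg38, with no role. The annotation, the gene lengths used for TPM and the strand setting are not given in the sources used here. Counts were not analysed here, so a count model was not used.

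The 12319 genes that averaged 1 TPM or more were compared on log2(TPM + 1), a scale that understates the change of low genes, with limma 3.58.1 in R 4.3.3 (mean-dependent prior, group as the only term, two-sided, 95% intervals), and p-values were adjusted over all of them by the Benjamini-Hochberg method. The limma step was also tested on simulated data, with changes larger than any estimate of a member, so that test does not bear on changes as small as these. Class medians have no test. Canonical transcript length, GC content and exon overlaps came from GENCODE 44 by Ensembl identifier and promoters from RefSeq (GRCh38.p14) by symbol. Python 3.11.15 with scipy 1.17.1 served for tables and rank correlations. The members, and the lists by class, arm and pathway, were chosen with earlier results of these data known. After the analysis, 1 gene that meets the name rule was taken out of every class and summary of the members and is not reported here, a choice that did not rest on its values. Core subunits and assembly factors are given in every library, as are the 3 highest and 3 lowest accessory subunits, members at an unadjusted p under 0.05 or with a mean under 1 TPM, and those whose libraries of 1 group differ by over 0.5 on the log2 scale. NDUFB1, NDUFB2 and NDUFC2 were given so after their values had been seen. Alternatives changed the pseudocount (0.1 or 5), the filter (none or 5 TPM), the scaling (median ratios or quantiles) and the prior of limma, blocked on the replicate number, or dropped 1 library at a time.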

Additional observations from a re-analysis of the deposited data

How the results depend on the processing

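No member passed an adjusted p of 0.05 in limma in any of the 12 alternatives (0 in each, with NDUFA5, NDUFAF4 and NDUFAF6 not tested under the filter at 5 TPM, against 1 to 5 at an unadjusted p under 0.05 with a library left out, where the lone library is assumed to vary like the others). At an unadjusted p under 0.05 the 1 member (NDUFA6) became 2 with a pseudocount of 0.1 or a filter at 5 TPM (NDUFA6 and NDUFB1), 0 with quantile normalization or without the mean-dependent prior, and 3 with the replicate number as a block (NDUFB1, NDUFB2 and NDUFV3), so which genes pass depends on the setting. Over all genes tested, the deviations of same-numbered libraries correlated at -0.049, over 2 pairs, which cannot decide whether the numbers pair the libraries. The median deviation of each nuclear class was lower in library 2 than in library 1 of both groups. For the mitochondrially encoded genes this held only in control. The core median of 0.0086 became 0.022 with median ratios, and -0.0037 to 0.038 with a library left out. The accessory median ranged from -0.066 to 0.0055 and that of the assembly factors from 0.011 to 0.054 with a library left out, the latter 0.0023 with the filter at 5 TPM, which drops NDUFAF4 and NDUFAF6. The ratio of the accessory to the core median was 0.96 to 1.01 with a library left out. Of 45 members (NDUFA4 included), 20 kept the sign of their estimate in all 12 alternatives and 25 turned it when 1 library was left out. The log2 estimates of these 25 then ranged over NDUFS3 -0.075 to 0.043, NDUFV1 -0.0054 to 0.0064, NDUFA7 -0.029 to 0.038, NDUFA11 -0.075 to 0.012, NDUFA12 -0.14 to 0.062, NDUFAB1 -0.070 to 0.042, NDUFB5 -0.28 to 0.17, NDUFB9 -0.029 to 0.010, NDUFB10 -0.027 to 0.023, NDUFS4 -0.28 to 0.042, NDUFAF1 -0.12 to 0.053, NDUFAF2 -0.049 to 0.19, NDUFAF8 -0.17 to 0.019, NDUFS7 -0.023 to 0.056, NDUFC1 -0.13 to 0.13, NDUFS6 -0.040 to 0.041, NDUFA10 -0.11 to 0.18, NDUFB3 -0.086 to 0.24, NDUFB11 -0.00087 to 0.030, NDUFAF3 -0.048 to 0.13, NDUFA3 -0.0035 to 0.21, NDUFA8 -0.11 to 0.0042, NDUFB4 -0.098 to 0.012, NDUFAF4 -0.15 to 0.53 and NDUFA4 -0.17 to 0.0039. Sign changes under other settings came in 6 of 357 estimates, all close to 0: NDUFB9 (0.0040 with median ratios, 0.014 with quantile normalization), NDUFB10 (0.011 and 0.0055), NDUFAB1 (0.0033 with quantile normalization) and NDUFS6 (-0.0016 with quantile normalization). Of 120 medians of other lists, 25 moved. The causes were not tested. With 2 libraries a group, depth unknown and 10 members under 20 TPM, the low members bound a change least closely.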
